A study of Mus musculus with 46 samples.

Results

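The germline genes followed here were 10 of 22238 protein-coding genes (GENCODE vM1 annotation, mouse genome build mm9), read in 30 ChIP-Seq peak lists: Gtsf1, Dazl, Ddx4, Mael, Sycp3, Sycp1, Tdrd1, Stk31, Prdm1 and Kit. They were taken by name, as genes known from the germline, and the choice was made with earlier results of these data known. Each gene was given a window from 1 kb before its annotated start to 1 kb past its end. Every peak that shared at least 1 bp with the window was counted, and its score was read as deposited, in tags per 10 M tags of the library. In fibroblasts 4 of the 10 genes held an H3K4me3 peak, where 70.3% of all genes did, and in induced pluripotent stem cells 9 of the 10, where 69.1% did. Most of the additional peaks were weak: among peaks at or above the median score of each list the counts were 3 and 4.

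Germline genes are used by germ cells and are silent in most somatic cells, where DNA methylation and repressive complexes at their CpG-rich promoters keep them off. The group includes the signals and regulators that specify primordial germ cells, RNA-binding proteins of the germ granule, the small-RNA pathway that silences transposons, and the proteins that pair chromosomes in meiosis. Pluripotent cells resemble early germ cells in much of their gene use, and some germline promoters are known to lose their repression there. H3.3 is a histone H3 variant laid down outside DNA replication, H3K4me3 (trimethylated lysine 4) marks active and poised promoters, and H3K36me3 (trimethylated lysine 36) marks the transcribed bodies of active genes. Of the 10 genes, Prdm1 and Kit are also used by many somatic cells.

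The cells were mouse embryonic fibroblasts (MEFs) in which Oct4 carried a GFP reporter, and all of the reprogramming cells received retroviruses for Oct4, Sox2, Klf4 and c-Myc. D0 were the starting fibroblasts and D3 unsorted cells of day 3. On days 6 and 9 cells were sorted on Thy-1, a fibroblast surface protein, and on days 12 and 16 on SSEA-1, a surface antigen of pluripotent cells. The Thy-1-negative (D6T- and D9T-) and SSEA-1-positive fractions (D12S+ and D16S+) held the cells that go on to induced pluripotent stem cells (iPSCs), called successful here. Their counterparts of the same days (D6T+ and D9T+, then D12S- and D16S-) were the unsuccessful fractions. ESD3 was the mouse embryonic stem cell line D3. A second conversion, transdifferentiation to hematopoietic progenitors, used MEFs before (MEF) and 4 days after (D4) retroviral Scl, Lmo2, Bmi1 and Runx1. It also used cells sorted on cKit (cKit+ and cKit-). The vectors carried mouse Scl and human Lmo2, Bmi1 and Runx1. Per the study's methods these cells grew on inactivated OP9 mouse stromal cells. H3.3 was profiled in all 16 conditions, and H3K4me3 and H3K36me3 in 7 of them, D0, D3, the successful fractions and iPSCs.

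Each condition had 1 library per mark, so no difference below has a replicate check or a test. Intervals are exact 95% Poisson intervals of the tag numbers behind a score. They cover counting error only, since PCR copies of a fragment are not independent molecules. Depth ran from 13.2 to 91.8 M tags. Enrichment differed more: tags in peaks made up 30.4% of the D0, 12.7% of the iPSCs and 3.71% of the D16S+ H3K4me3 library. A score therefore moves with the enrichment of its library. For some of the comparisons its percentile rank among all peaks of that library is given, and elsewhere the scores stand uncorrected for enrichment. A window without a peak is not a window without tags, because the lists hold only peaks that passed the calling limits. The lowest score in any list lay between 3.54 and 6.06. In a check of the cell labels, H3K4me3 start-site peaks were present at 8 of 8 fibroblast markers in D0 and 5 of 8 in iPSCs, and at 2 of 7 pluripotency markers in D0 and 7 of 7 in iPSCs. Of 7 hematopoietic markers, 4 had an H3.3 peak in cKit+ and 4 in D0, where all genes stood at 33.3% and 61.9%, and of 8 fibroblast markers 4 had one in cKit+ and 8 in D0. The germline genes had a median length of 48.9 kb against 15.5 kb for all protein-coding genes, so their windows offered more room for a peak than the typical gene.

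The promoter sequences of 5 of the genes are shown because their start sites carried the H3K4me3 results. The 250 bases before the RefSeq start were taken from the RefSeq promoter table (build GRCm38.p6), and each was found unchanged at a single place near its gene in mm9, whose coordinates are given. Capitals mark CACGTG, the palindromic E-box that reads the same on both strands.
Mael, chr1:168168876-168169125, minus strand: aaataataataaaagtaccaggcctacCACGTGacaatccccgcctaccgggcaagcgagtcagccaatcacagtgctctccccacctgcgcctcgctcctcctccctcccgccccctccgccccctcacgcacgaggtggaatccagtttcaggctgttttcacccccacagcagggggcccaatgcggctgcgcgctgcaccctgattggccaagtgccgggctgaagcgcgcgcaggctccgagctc
Ddx4, chr13:113442519-113442768, minus strand: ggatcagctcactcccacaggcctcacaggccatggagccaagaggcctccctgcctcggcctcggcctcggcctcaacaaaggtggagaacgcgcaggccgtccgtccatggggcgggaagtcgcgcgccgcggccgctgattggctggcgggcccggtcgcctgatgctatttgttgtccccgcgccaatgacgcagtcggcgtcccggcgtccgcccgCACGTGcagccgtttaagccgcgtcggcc
Sycp3, chr10:87922082-87922331, plus strand: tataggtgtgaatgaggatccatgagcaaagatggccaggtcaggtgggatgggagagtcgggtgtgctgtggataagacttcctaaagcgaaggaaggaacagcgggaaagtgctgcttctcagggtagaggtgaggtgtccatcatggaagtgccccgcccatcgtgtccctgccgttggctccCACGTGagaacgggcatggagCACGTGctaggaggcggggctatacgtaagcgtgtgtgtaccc
Gtsf1, chr15:103260859-103261108, minus strand: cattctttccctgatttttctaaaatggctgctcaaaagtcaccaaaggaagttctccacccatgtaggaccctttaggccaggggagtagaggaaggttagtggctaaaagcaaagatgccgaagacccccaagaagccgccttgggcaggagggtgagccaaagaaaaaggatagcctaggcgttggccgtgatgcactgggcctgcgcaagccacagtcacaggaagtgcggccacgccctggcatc
Dazl, chr17:50432946-50433195, minus strand: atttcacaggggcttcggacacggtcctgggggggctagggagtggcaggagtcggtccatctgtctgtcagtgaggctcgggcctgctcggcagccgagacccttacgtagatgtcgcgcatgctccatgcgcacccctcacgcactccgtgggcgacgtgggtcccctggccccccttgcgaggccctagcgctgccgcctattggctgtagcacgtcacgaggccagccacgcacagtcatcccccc

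CACGTG was present in the 250 bases of 6 of the 10 genes (Ddx4, Mael, Sycp3, Sycp1, Tdrd1 and Stk31) and in 6.02% of the 32851 RefSeq promoter entries of the same length. Sycp3 held it at 2 places, beginning 64 and 43 bases before the start. In Ddx4 it began 29 bases before the start and in Mael 223 bases before it. Gtsf1, Dazl, Prdm1 and Kit had no match in this window. The same 250 bases held between 7 CpG dinucleotides (Gtsf1) and 31 (Ddx4), with 20 in Dazl, 18 in Mael and 12 in Sycp3, and the median over all RefSeq entries was 6. A match of letters is a description of the sequence and not a site of binding.

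H3K4me3 was compared between D0 and iPSCs to find which germline genes held a marked start before and after conversion. In D0, 4 of the 10 genes had an H3K4me3 peak anywhere in the window (Dazl, Tdrd1, Prdm1 and Kit), against 70.3% of all protein-coding genes. In iPSCs 9 of the 10 had one, all but Tdrd1, against 69.1% of all genes. In all, 6 genes had a peak in iPSCs and none in D0 (Gtsf1, Ddx4, Mael, Sycp3, Sycp1 and Stk31), and 2.98% of all genes did so. These 6 were all of the members that lacked a peak in D0, whereas 10.0% of all genes lacking a D0 peak had one in iPSCs. One gene, Tdrd1, had a peak in D0 only, as did 4.18% of all genes.

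A start-site peak was one that touched the stretch from 1000 bp upstream to 100 bp downstream of an annotated transcript start. Dazl, Prdm1 and Kit had such an H3K4me3 peak in D0, 3 of 10 members against 65.8% of all genes. In iPSCs 7 of 10 had one, the same 3 genes with Gtsf1, Ddx4, Mael and Sycp3, against 63.9% of all genes. With every list shortened to an equal number of top-scoring peaks 4 of 10 had one in iPSCs (Ddx4, Sycp3, Prdm1 and Kit), and Gtsf1, Mael and Dazl had none. In the full lists, the 4 additional genes stood beside 2.06% of all genes with a start-site peak in iPSCs and not in D0, and no member had the reverse, which 3.99% of all genes did. Of the 7 members without a start-site peak in D0 these were 4, and of all genes without one in D0 the share was 6.01%. None of the 4 had a start-site peak in D0, D3, D6T- or D9T-, a pattern that 1.43% of all genes shared.

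**Figure D1:**
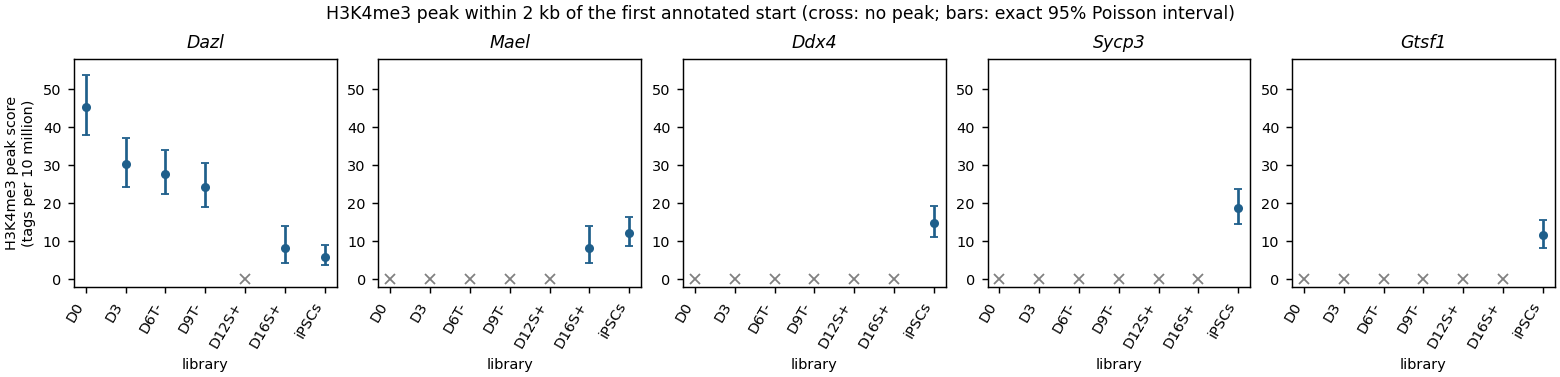
H3K4me3 peak score (tags per 10 M, vertical axis) of the peak whose centre lay less than 2 kb past the first annotated start, for 5 genes in the 7 libraries from D0 to iPSCs; points are scores, bars exact 95% Poisson intervals and crosses libraries without such a peak. Dazl stood at 45.4 in D0 and 5.93 in iPSCs, while Ddx4, Sycp3 and Gtsf1 had a peak in iPSCs only and Mael in D16S+ and iPSCs.

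Ddx4 (chr13:113388541-113442518, minus strand) encodes the Vasa RNA helicase of the germ granule. It had no H3K4me3 peak in any of the 6 libraries from D0 to D16S+. In iPSCs a peak of 1.04 kb lay over its single annotated start, from -0.28 to 0.76 kb relative to it (negative, upstream). Its score was 14.7 (95% interval 11 to 19.3) with 4.11-fold more tags than input, at the 46.7th percentile of the iPSCs list. The peak covered the whole printed promoter stretch, including the CACGTG.

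Mael (chr1:168131516-168168875, minus strand) encodes Maelstrom, which acts with the piRNA pathway in silencing transposons. The libraries from D0 to D12S+ held no H3K4me3 peak in its window. D16S+ held a peak of 8.22 (4.38 to 14.1), 0.25 to 0.97 kb downstream of the start and just outside the start-site stretch. In iPSCs a peak of 12.2 (8.84 to 16.4) lay from -0.24 to 0.56 kb. The intervals of both libraries overlap, so the 2 scores cannot be ordered.

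Sycp3 (chr10:87922314-87935981, plus strand) encodes a protein of the synaptonemal complex axis, which holds paired chromosomes in meiosis. Its H3K4me3 peak in iPSCs scored 18.7 (14.5 to 23.8) at 8.10-fold over input, and the other 6 libraries had none. The peak ran from 0.10 to 1.12 kb downstream of the first start, so the printed bases lay outside it. The gene lies wholly inside Chpt1, which is transcribed from the opposite strand, and ChIP tags carry no strand of transcription.

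Gtsf1 (chr15:103232836-103260901, minus strand) encodes a small zinc-finger protein of the piRNA pathway. In iPSCs it had 2 H3K4me3 peaks and in the other 6 libraries none. The peak at its starts spanned -0.17 to 0.62 kb and scored 11.6 (8.33 to 15.7). The second peak lay within the gene, 17.7 to 20.3 kb downstream, and scored 65.8 (57.6 to 74.8), at the 83.7th percentile of the list. Most of the summed score of 77.4 thus came from the internal peak.

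The internal Gtsf1 peak sat on a tandem array. Its most repeated 32-base word occurred 9 times within the peak at spacings of 212 to 220 bases, and 4751 times in the whole mm9 genome. One unit is printed on the strand of the gene because it lies under the highest-scoring H3K4me3 peak that any of the 6 genes without H3K4me3 in D0 had in iPSCs, with CG dinucleotides in capitals.
Gtsf1 array unit, chr15:103242596-103242807, minus strand: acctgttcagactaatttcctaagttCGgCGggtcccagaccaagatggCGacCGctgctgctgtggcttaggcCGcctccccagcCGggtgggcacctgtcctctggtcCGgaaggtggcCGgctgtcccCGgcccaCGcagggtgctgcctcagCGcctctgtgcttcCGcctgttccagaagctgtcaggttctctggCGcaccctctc
The unit of 212 bases held 13 CpG and was 65.6% G or C. In the whole peak 20.9% of the 32-base words were single-copy in mm9. The authors kept only reads that mapped to a single locus, so the score rests on the reads that could be placed.

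The same count was made for every peak of the 10 genes. Of 190 peaks, 162 had at least 90% single-copy words and 10 had under 50%. The start-site H3K4me3 peaks of Ddx4, Mael, Sycp3, Gtsf1 and Dazl in iPSCs were all 100% single-copy. The internal peaks of Sycp1 were not. Sycp1 (chr3:102622422-102740023, minus strand), which encodes the transverse filament of the synaptonemal complex, had H3K4me3 peaks of 11.4 (6.76 to 18.0) in D16S+ and 16.1 (12.2 to 20.9) in iPSCs. They lay at different places, centred 49.2 and 69.6 kb downstream of its start, and were 28.9% and 16.1% single-copy. No library had an H3K4me3 peak at the Sycp1 start.

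Dazl (chr17:50418719-50432924, minus strand), an RNA-binding protein that germ cells need for their development and entry into meiosis, ran the other way. Its H3K4me3 peak scored 45.4 (38.0 to 53.8) in D0, 30.3 (24.4 to 37.2) in D3, 27.8 (22.5 to 34.0) in D6T- and 24.3 in D9T-. D12S+ had no peak, D16S+ had 8.22 (4.38 to 14.1) and iPSCs 5.93 (3.67 to 9.07). The intervals of D0 to D9T- lay wholly above those of D16S+ and iPSCs, while D3, D6T- and D9T- overlapped one another.

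The ranks of the Dazl peak in the library lists gave the same order of early and late libraries. They were 63.0, 46.5, 52.2 and 48.4 percent from D0 to D9T-, then 24.2 in D16S+ and 9.84 in iPSCs. The place of the peak also differed: in D0 to D9T- it lay between 0.18 and 1.61 kb downstream of the first start, over the second annotated start, and in iPSCs it spanned 0.05 to 0.55 kb. When every list was shortened to its 19633 top-scoring peaks, Dazl had a peak in D0 and none in iPSCs.

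Prdm1 and Kit kept H3K4me3 at their starts in all 7 libraries. Prdm1 (chr10:44156983-44248307, minus strand), also called Blimp1, is the transcriptional repressor that begins germ cell specification. Its summed H3K4me3 scores, in the order of the route, were 472 in D0, then 366, 598 and 432 up to D9T-, then 210, 73.1 and 173 from D12S+ to iPSCs. The highest sum was in D6T- and the lowest in D16S+, the library with the smallest share of tags in peaks. The score came mainly from 2 places, the first annotated start and the starts of the coding transcripts 69.8 kb downstream, which in D0 scored 192 and 249. In iPSCs the same places scored 73.5 and 51.9, and another peak of 37.6 lay 85.8 to 87.5 kb downstream. The ranks did not all follow the sums. At the first start the peak stood at 87.1 percent of its list in D0, 87.1 in D12S+ and 86.4 in iPSCs. At the coding starts it stood at 92.6 in D0, 95.7 in D12S+, 82.8 in D16S+ and 77.4 in iPSCs.

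Kit (chr5:75970941-76052747, plus strand) encodes the receptor for stem cell factor, on which primordial germ cells depend for survival and migration. Its summed H3K4me3 scores, from D0 to iPSCs in the order of the route, were 81.5, 84.9, 109, 85.3, 49.7, 60.4 and 83.6. The lowest was in D12S+. The value in iPSCs (74.4 to 93.7) overlapped that in D0 (71.5 to 92.5). By rank in its list the start peak gave another order. From D0 to iPSCs it stood at 70.7, 62.7, 72.2, 71.4, 76.4, 92.3 and 87.8 percent, lowest in D3 and higher in iPSCs than in D0. Over all protein-coding genes the median summed H3K4me3 score was 118 in D0 and 41.5 in iPSCs, and 66.7% of genes were lower and 6.63% higher in iPSCs. Of the 10 germline genes, 7 were higher and 3 (Dazl, Tdrd1 and Prdm1) lower, with a median difference of 8.93 against -62.2 over all genes. Of these 7, 6 had no peak in D0 and could not be lower, and the other was Kit, whose intervals overlapped. In D0 70.3% of all genes had a peak that could fall, and tags in peaks made up 30.4% of D0 and 12.7% of iPSCs. The medians therefore do not set like with like.

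**Figure D2:**
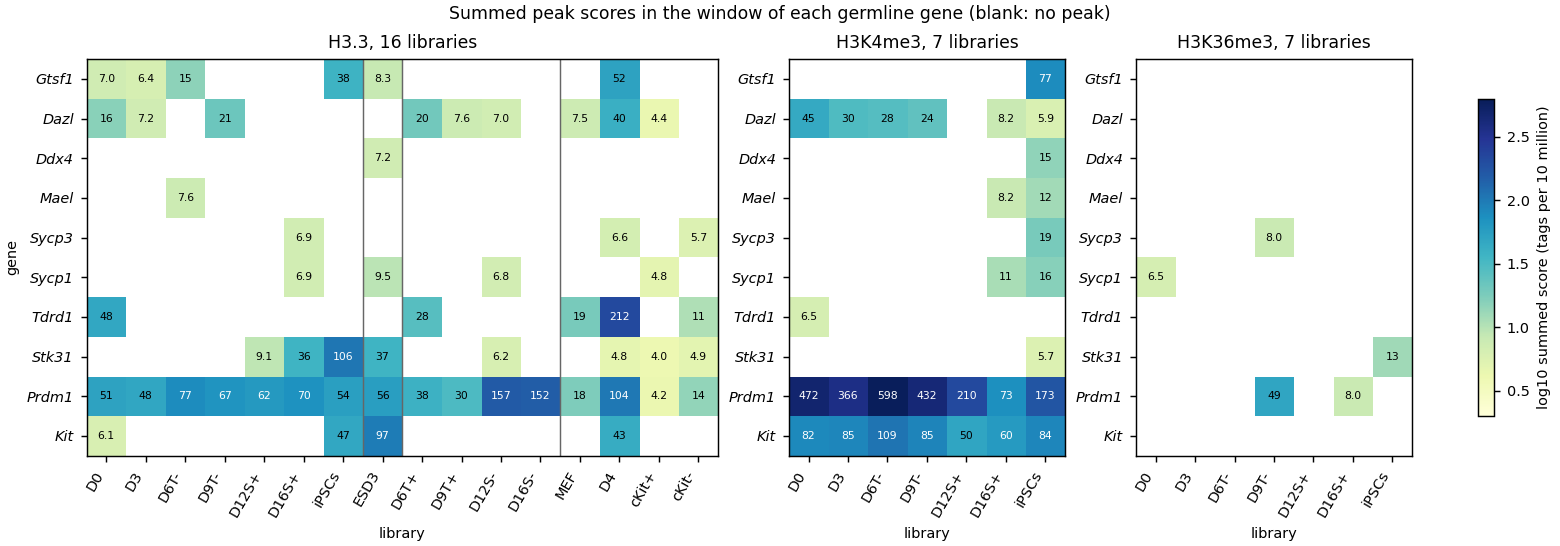
Summed peak score (colour, log10 scale, and number in tags per 10 M) of the 10 genes (rows) in the 16 H3.3, 7 H3K4me3 and 7 H3K36me3 libraries (columns); blank cells had no peak, and vertical lines part the route to iPSCs, ESD3, the unsuccessful fractions and transdifferentiation. Prdm1 is filled in all H3.3 and H3K4me3 columns, and the iPSCs column of H3K4me3 holds 9 of 10 genes.

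Between the end points, D3, D6T- and D9T- each had 3 members with an H3K4me3 peak, where all genes stood at 68.3%, 69.8% and 68.7%. D12S+ had 2 (66.1% of all genes) and D16S+ 5 (51.7%). At start sites D3, D6T- and D9T- again had 3 each, where all genes stood at 64.4%, 65.4% and 64.4%, and D12S+ and D16S+ had 2 each, against 61.6% and 40.5%. The members thus held fewer start-site peaks than the background share in every library before iPSCs, and Prdm1 and Kit alone kept theirs throughout.

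Other genes of the germline programme were counted in the same way from 4 lists, of which 68 of 72 genes were found in the annotation. Of these 68, 30 (44.1%) had an H3K4me3 start-site peak in D0 and 46 (67.6%) in iPSCs, against 65.8% and 63.9% of all genes. A start-site peak in iPSCs and not in D0 was found for 17 of 68 (25.0%), against 2.06% of all genes. A larger part of the 68 than of all genes lacked one in D0 and could gain it. Among all genes without one in D0 the share was 6.01%. The reverse was found for 1, against 3.99% of all genes. By list the 17 were 3 of 16 genes of germ cell specification, 5 of 17 of the piRNA pathway and germ granule, 4 of 21 of meiosis and 5 of 14 other germline-restricted genes. Tdrd12, a Tudor-domain protein of the piRNA pathway, had peaks of all 3 marks in iPSCs and none in D0, with an H3K4me3 sum of 90.4, an H3.3 sum of 157 and an H3K36me3 sum of 30.3. Gtsf1l, a relative of Gtsf1, had H3K4me3 (80.5) and H3.3 (169) in iPSCs only. Tex19.1, a germline gene that is active in placenta and pluripotent cells, likewise had H3K4me3 (65.0) and H3.3 (13.6) in iPSCs only.

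Rnf17, a germ granule protein, had H3K4me3 (31.2) and H3K36me3 (6.38) in iPSCs only, but H3.3 (15.2) in D0 only. Fkbp6, a co-chaperone of the piRNA pathway, had small iPSCs-only peaks of H3K4me3 (5.93) and H3.3 (7.41). Dmc1, the meiotic recombinase, had H3.3 (50.0) and H3K36me3 (7) in iPSCs only, while its H3K4me3 was present in both (20.9 in D0, 32.8 in iPSCs). The reverse was seen for Piwil4, a PIWI protein of fetal germ cells, with H3.3 of 71.0 and H3K4me3 of 24.5 in D0 and neither in iPSCs, and for Brdt, a testis bromodomain protein, whose H3.3 (34.5) and H3K36me3 (102) were called in D0 only.

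**Figure D3:**
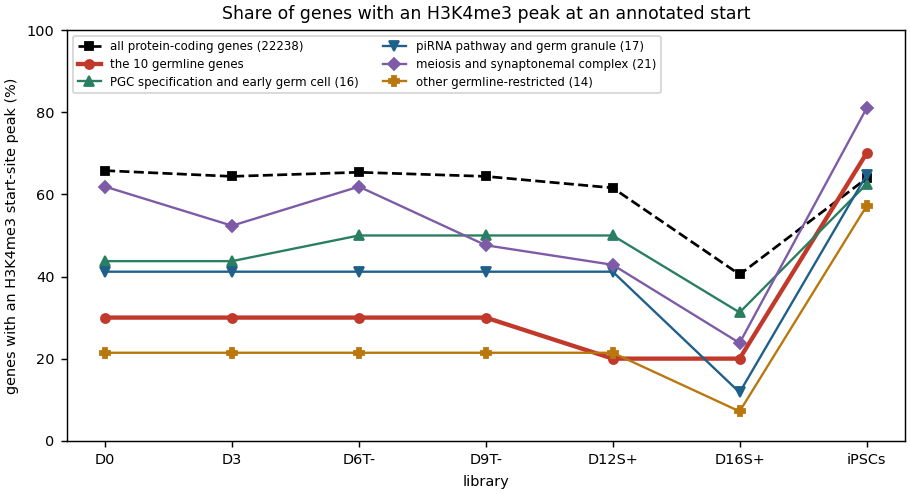
Share of genes with an H3K4me3 peak at an annotated start (percent, vertical axis) in the 7 libraries from D0 to iPSCs, for the 10 germline genes, 4 lists of other germline genes and all protein-coding genes (dashed). The 10 genes stood at 3 of 10 in D0 and 7 of 10 in iPSCs, while all genes stood at 65.8% and 63.9%.

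H3.3 gave a different picture from H3K4me3. In D0 5 members had an H3.3 peak (Gtsf1, Dazl, Tdrd1, Prdm1 and Kit; 61.9% of all genes), 4 in iPSCs (Gtsf1, Stk31, Prdm1 and Kit; 61.3%) and 6 in ESD3 (52.2%). Stk31 alone had a peak in iPSCs and not in D0, as did 8.83% of all genes. Dazl and Tdrd1 had one in D0 and not in iPSCs, as did 9.49%. None of the 4 start sites with H3K4me3 in iPSCs only had an H3.3 peak there in iPSCs. At the Ddx4 start a peak of 7.17 (4.06 to 11.7) was called in ESD3 and in no other library. Mael had a single H3.3 peak in 16 libraries, 7.58 (4.78 to 11.4) in D6T-, 26.4 to 26.9 kb downstream, and only 12.8% of its 32-base words were single-copy.

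Stk31 (chr6:49345603-49419500, plus strand), a kinase-like protein with a Tudor domain that germ cells express, held the largest H3.3 sum of the germline genes in iPSCs. Its summed H3.3 score was 9.11 (5.60 to 14) in D12S+, 36.5 (28.4 to 46.2) in D16S+, 106 (96.2 to 116) in iPSCs and 37.0 (29.3 to 46.1) in ESD3. The libraries before D12S+, both Thy-1-positive fractions and D16S- had no peak. The intervals of D12S+, D16S+ and iPSCs did not overlap, whereas ESD3 overlapped D16S+. The largest peak in iPSCs scored 75.4, at the 98.0th percentile of its list. In D12S+, D16S+ and ESD3 the largest peak stood at 50.3, 90.4 and 94.7 percent. Tags in H3.3 peaks made up 6.93% of D12S+, 4.88% of D16S+, 14% of iPSCs and 7.4% of ESD3. Their part in the Stk31 sums was not tested.

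The H3.3 peaks of Stk31 lay within the gene and not at its start. All 4 libraries had a peak around 21 kb downstream, and their shared bases were the 500 bp of the D12S+ peak. The central 300 bases, which overlap no annotated exon, are printed because they are common to every library with this peak.
Stk31 internal site, chr6:49366595-49366894, plus strand: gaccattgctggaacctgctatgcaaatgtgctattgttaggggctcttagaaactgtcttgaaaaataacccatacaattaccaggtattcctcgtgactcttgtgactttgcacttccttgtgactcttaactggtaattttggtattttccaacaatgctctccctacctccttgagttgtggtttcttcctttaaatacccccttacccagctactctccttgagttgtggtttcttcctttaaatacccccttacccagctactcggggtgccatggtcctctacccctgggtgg
These bases held 2 CpG, and 36.1% of their 32-base words were single-copy in mm9, with a median of 7 copies. In the wider iPSCs peak of 3.96 kb 80.1% were single-copy. In iPSCs an H3K36me3 peak of 12.6 (8.54 to 17.9) lay at 22.1 to 22.7 kb, inside the H3.3 peak, and was the only H3K36me3 peak of a member in iPSCs. A smaller H3.3 site near 15 kb was called in D16S+ (9.60), iPSCs (23.7), D12S- (6.22) and D4 (4.79). In iPSCs it also carried the H3K4me3 peak of 5.65 (3.45 to 8.73), which ranked at the 5.19th percentile of its list.

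**Figure D4:**
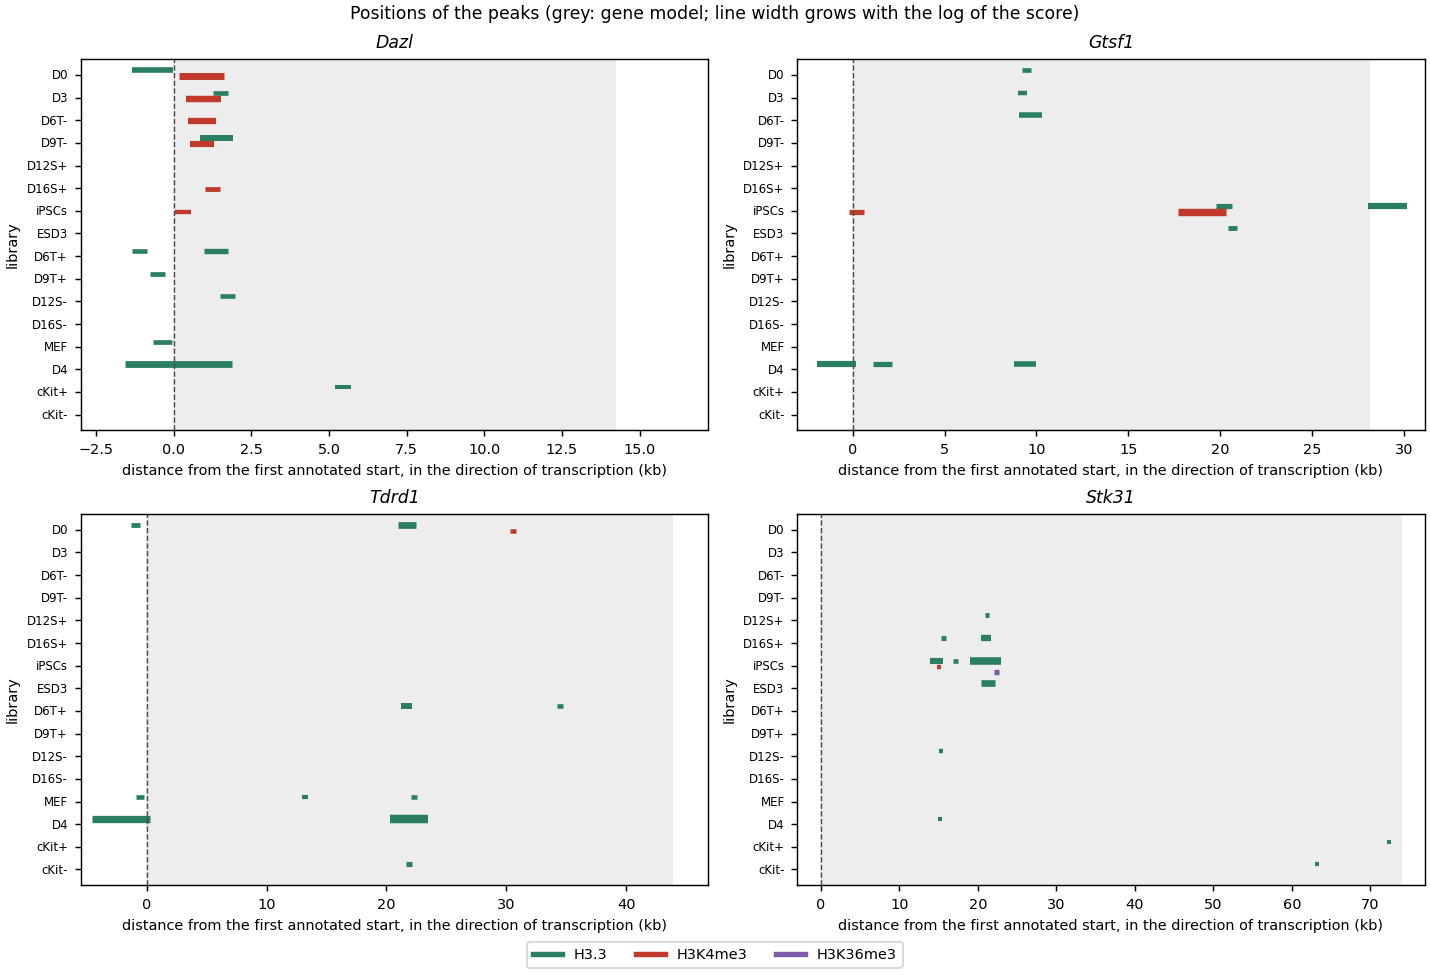
Peaks of H3.3, H3K4me3 and H3K36me3 along Dazl, Gtsf1, Tdrd1 and Stk31 by distance from the first annotated start (kb, horizontal axis) in the 16 conditions (rows; only H3.3 was profiled in the lower 9); the grey band is the gene and line width grows with the log of the score. The Dazl peaks lie near the start, except that of cKit+ at 5.20 to 5.70 kb. Stk31 has peaks lined up near 21 kb in D12S+, D16S+, iPSCs and ESD3, and Tdrd1 has peaks near 22 kb in 5 libraries.

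Kit had H3.3 at many places in both pluripotent libraries. Its sum was 6.12 (3.53 to 9.87) in D0, 46.6 (40.3 to 53.7) over 5 peaks in iPSCs and 97.2 (84.5 to 111) over 7 peaks in ESD3, and no other reprogramming library had a peak. The ESD3 value lay above that of iPSCs. Both shared 3 sites, 1.05 to 2.81, 24.20 to 25.35 and 50.26 to 51.69 kb downstream, and neither library had a peak over the first start, where H3K4me3 stood in iPSCs.

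Gtsf1 had H3.3 in an intragenic site 8.77 to 10.3 kb downstream in D0 (7.05), D3 (6.39), D6T- (14.8) and D4 (15.1). In iPSCs that site had no peak. There the H3.3 peaks lay at 19.7 to 20.7 kb (11.7), overlapping the H3K4me3 peak on the tandem array, and at 28.05 to 30.14 kb (26.1), mostly past the gene end. ESD3 had 8.33 at 20.4 to 20.9 kb. The 2 pluripotent libraries thus shared an H3.3 site. Another was shared by D0, D3 and D6T- of reprogramming and by D4 of the separate transdifferentiation.

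Dazl H3.3 peaks lay near the start in 8 of 16 libraries, and cKit+ had one within the gene. In D0 the score was 15.6 (11.2 to 21.1), upstream of the start, over most of the printed promoter and apart from the H3K4me3 peak. It was 7.16 (4.28 to 11.2) in D3 and 21.2 (16.5 to 26.8) in D9T-, both downstream of the start. On the successful route there was none from D12S+ to iPSCs, and ESD3 also had none.

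Tdrd1 (chr19:56900699-56944502, plus strand) encodes a Tudor-domain scaffold of the piRNA machinery. Its H3.3 sum was 47.5 (39.6 to 56.4) in D0, 27.5 (20.9 to 35.4) in D6T+ and 18.8 (15.1 to 23.2) in MEF. None of the libraries from D3 to iPSCs on the successful route, nor ESD3, had a peak. The largest Tdrd1 peak of D0 scored 39.1, centred 21.7 kb downstream of the first start, and 44.7% of its words were single-copy. The only H3K4me3 peak of Tdrd1, 6.5 (3.91 to 10.2) in D0, lay elsewhere at 30.3 to 30.8 kb.

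H3.3 in the sorted fractions was compared to see where successful and unsuccessful cells of 1 day differed. On day 6, Gtsf1 and Mael had a peak in D6T- and not in D6T+ (10.5% of all genes), and Dazl and Tdrd1 the reverse (3.02%). On day 9 no member had a peak in 1 fraction only (7.34% of all genes in D9T- only and 4.02% in D9T+ only). On day 12 none had a peak in D12S+ only (1.92%), and Dazl and Sycp1 had one in D12S- only (15.1%). On day 16 Sycp3, Sycp1 and Stk31 had a peak in D16S+ only (4.29%) and none in D16S- only (17.5%). Apart from Stk31 (36.5) and from Dazl and Tdrd1 in D6T+, these were mostly small peaks: Sycp3 and Sycp1 both scored 6.93 (3.69 to 11.9) in D16S+, and the lowest score in that list was 5.33. The Sycp3 peak had 0.16 of its 0.5 kb inside the window, upstream of the gene, and was not counted with the gene body alone or by its midpoint.

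Prdm1 had H3.3 in both fractions on each day. The sum was 77.2 (67.5 to 87.9) in D6T- and 38.4 (30.6 to 47.6) in D6T+, and 67.2 (58.5 to 76.7) in D9T- and 30.5 (23.7 to 38.6) in D9T+. On the later days the unsuccessful fractions were higher, with 62.2 (52.3 to 73.4) in D12S+ and 157 (143 to 173) in D12S-, and 69.8 (58.4 to 82.9) in D16S+ and 152 (135 to 170) in D16S-. The intervals of the fractions were apart on all 4 days. The share of tags in H3.3 peaks moved in the same way, at 19.3% in D6T- and 10.9% in D6T+, 14.8% in D9T- and 12.1% in D9T+, 6.93% in D12S+ and 22% in D12S-, and 4.88% in D16S+ and 12.2% in D16S-. Its part in the Prdm1 values was not tested. By rank in its list, the peak at the coding starts went the other way on days 6 and 16. It stood at the 87.1st percentile in D6T- and the 91.2nd in D6T+, and at 91.3 in D16S+ and 89.9 in D16S-. On day 9 it stood at 78.4 in D9T- and 73.0 in D9T+, and on day 12 at 68.4 in D12S+ and 92.3 in D12S-, in the direction of the sums. The day 12 ranks are not of like peaks. D12S- had a single peak of 3.24 kb there. Within its span D12S+ had separate peaks of 12.9 (rank 68.4) and 17.5 (78.3), and a score grows with peak length.

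**Figure D5:**
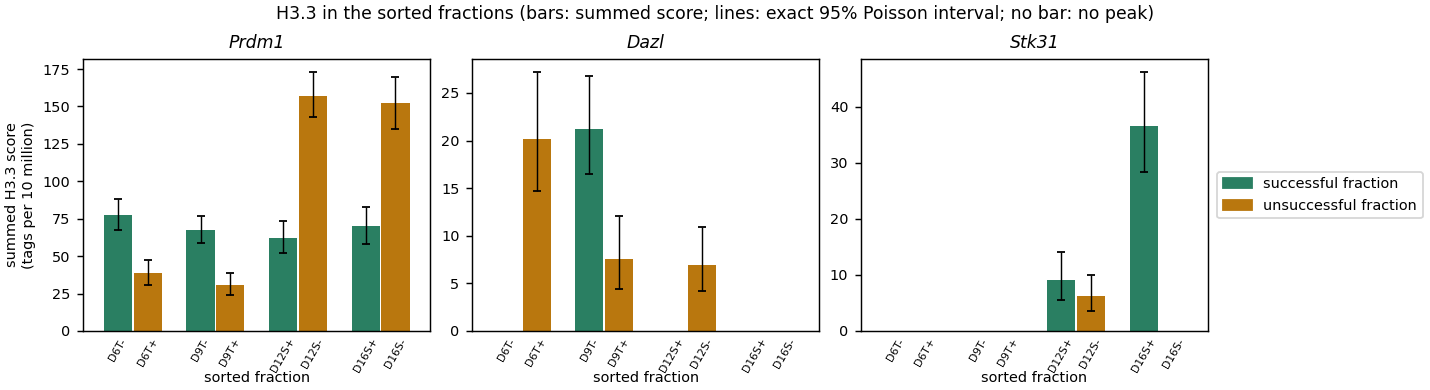
Summed H3.3 score (tags per 10 M, vertical axis) of Prdm1, Dazl and Stk31 in the successful and unsuccessful fractions of days 6, 9, 12 and 16; lines are exact 95% Poisson intervals and a missing bar is a library without a peak. Prdm1 was higher in the successful fraction on days 6 and 9 (77.2 against 38.4 on day 6) and in the unsuccessful one on days 12 and 16 (152 against 69.8 on day 16).

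In transdifferentiation H3.3 peaks were found at 3 members in MEF (53.4% of all genes), 7 in D4 (72.2%), 4 in cKit+ (33.3%) and 4 in cKit- (31.9%). D4 had the highest H3.3 sums of Tdrd1, Dazl and Gtsf1 in the series. Tdrd1 stood at 212 (201 to 223) in D4 against 18.8 in MEF, with a peak of 154 at 20.3 to 23.5 kb and another of 57.7 reaching from -4.53 to 0.26 kb of the first start, into the window of the neighbouring A630007B06Rik. Only the part of the latter within 1 kb of the start lay in the window. Dazl stood at 40.2 (35.4 to 45.4) in D4 and 7.5 (5.22 to 10.4) in MEF, and Gtsf1 at 51.6 (46.2 to 57.5) in D4 with no peak in MEF, including peaks at its starts that no other library had. Tags in peaks made up 37.2% of the D4 library and 7.64% of MEF, and their part in these values was not tested.

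In the cKit-sorted cells H3.3 scores were low over the whole lists. Tags in peaks made up 1.65% of cKit+ and 2.31% of cKit-, and the median score of all peaks was 4.80 and 6.88. The shares of members with a peak, 4 of 10 in both, were near those of all genes. Every member peak there scored under 5 in cKit+, and the largest sum in cKit- was 14.2 for Prdm1. The largest single peak in cKit-, 10.6 (7.98 to 13.8) in Tdrd1, had 0.638% single-copy words. Kit, whose protein was the sort marker, had 43.0 (38.1 to 48.4) in D4 and no peak in MEF, cKit+ or cKit-.

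H3K36me3 was nearly absent from the germline genes. No member had a peak in D3, D6T- or D12S+, where all genes stood at 44.6%, 38.9% and 23.5%. D0, D16S+ and iPSCs had 1 member each, against 49.7%, 25.7% and 34.9% of all genes, and D9T- had 2 (50.3%). Prdm1 in D9T- had the highest sum, with 4 peaks adding to 48.9 (40.2 to 59.0) in the part of the gene past the coding starts. The others were Sycp1 in D0 (6.51), Sycp3 in D9T- (8.04), Prdm1 in D16S+ (7.96) and Stk31 in iPSCs (12.6). Tags in peaks made up 42.4% of the D9T- library. By rank in its list the order was another: the highest-ranked Prdm1 peak of D9T- stood at 50.0 percent, and the Stk31 peak of iPSCs at 80.1. From D0 to iPSCs 1 member lacked its peak in the later library (Sycp1; 17.9% of all genes) and 1 had it there only (Stk31; 3.08%). The genes whose starts carried H3K4me3 in iPSCs only (Gtsf1, Ddx4, Mael and Sycp3) had no H3K36me3 peak in iPSCs. The tags in H3K36me3 peaks made up 2.88% of the iPSCs library, against 31.3% in D0.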

How the data were processed

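Lists of ChIP-Seq peaks from 30 libraries of mouse cells (16 H3.3, 7 H3K4me3 and 7 H3K36me3) were used, and the other 16 samples were input libraries. The methods and the submitters' processing notes name STAR for mapping to mm9, with reads at several loci dropped, and HOMER for peaks. Versions are not given in the sources used here. Each library was called on its own against an input by the authors, as the headers show, with no pooling. The score in the deposited files is a signal, the tag number scaled to 10 M tags of the library, with neither input nor length taken out. Fold over input, another deposited column, is a ratio of at least 2 for H3.3 and at least 4 for the other marks. The p-value of a peak against input, at a limit of 0.0001, was computed by the authors and was not used. The D6T- H3K36me3 header gave a fragment length of 444 bp, and the other H3K36me3 headers 120 to 158 bp.

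Scores of whole peaks that shared 1 bp with a gene window were summed (Python 3.11.15, pandas 2.3.3, SciPy 1.17.1), with 22380 protein-coding entries joined into 22238 gene symbols. A score times the library's tags over 10 M gave the tag number behind each 95% Poisson interval. Overlap and intervals were tested on simulated data. Single-copy shares count 32-base words over both strands of mm9, and longer reads can be placed where such words cannot. With 1 library per group no test was made. The members and lists were chosen with earlier results of these data known. All 10 members were named, and a gene of the other germline lists was named where it had a peak in D0 only, or in iPSCs only, for at least 2 of 3 marks. The alternatives were windows without flanks or with 5 kb flanks, the midpoint of a peak in place of any overlap, a fold of at least 4 for H3.3, the upper part of each list by its median score, equal numbers of top-scoring peaks, a start-site stretch of 1 kb to either side, and the part of a peak inside the window.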

Additional observations from a re-analysis of the deposited data

Results flagged for a closer look

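Prdm1, Dazl and Tdrd1 showed differences of opposite direction under like comparisons of H3.3, with counting intervals apart. In the differences a library without a peak counts as 0, and in setting its interval apart from the other it was taken to reach the lowest score of its list. Such a difference may be too large, since tags below the calling limit are not listed. None of these opposite directions was tested, since each group had 1 library. For Prdm1, the successful minus the unsuccessful fraction was 38.8 on day 6 and 36.7 on day 9, but -94.8 on day 12 and -82.0 on day 16. For Dazl the same difference was -20.2 on day 6 and 13.6 on day 9, with the D6T+ score split over peaks on both sides of the start and the D9T- score in a single peak downstream of it. That D9T- peak stood 2.52-fold over input, against 6.14-fold for the D9T+ peak and 5.07-fold for the larger D6T+ peak. A fold of at least 4 therefore drops the D9T- peak and keeps the other 2, and Dazl is then lower in the successful fraction on both days. For Tdrd1, the summed H3.3 score after the first days of induction minus that before was -47.5 in reprogramming (D3 minus D0) and 193 in transdifferentiation (D4 minus MEF).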

How the results depend on the processing

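Of 64 recomputed main counts of members, 49 stayed within 1.5 times of the reported count, as did 125 of 166 counts per library. Of 91 summed scores counted only inside the window, 76 stayed within their counting interval. With only peaks at or above the median score, 2 members (Gtsf1 and Sycp3) had H3K4me3 in iPSCs and not in D0, against 6, 4 had H3K4me3 in iPSCs at all, against 9, and the member-library pairs with a peak were 18 of H3K4me3 (reported 29), 34 of H3.3 (57) and 2 of H3K36me3 (5). Gtsf1 was kept there by its internal peak on the tandem array (65.8), since its start peak (11.6) lay below the median of the iPSCs list (16.7). A fold of at least 4 left 23 of the 57 H3.3 pairs. With equal numbers of top-scoring peaks, 4 members had an H3K4me3 start-site peak in iPSCs against 7, with Ddx4 and Sycp3 there only and Dazl in D0 only, and 1 H3K36me3 pair was left. Under both of these list limits H3.3 was in iPSCs and not in D0 at 3 members (Gtsf1, Stk31 and Kit) against 1, H3K36me3 in D0 only at 0 against 1, and H3.3 in the unsuccessful fraction only at 2 against 4. The gene body alone left 1 member with H3.3 in D0 only (Tdrd1) against 2, and 5 kb flanks left 0 with H3K4me3 in D0 only against 1. The list limits drop weak peaks by construction, and the cause of the other shifts was not tested. Depth limits peaks near the lowest score of a list, as most of Mael, Ddx4, Sycp1 and Sycp3 in H3.3 were. No paired analysis was possible because each group had 1 library.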
